A study of Mus musculus with 16 samples.

Results

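The step from 2 to 4 hours of Raf stimulation was read from 4 of the 16 arrays of the series, the 2 arrays of the 2h group and the 2 arrays of the 4h group, paired by replicate number. The cells were E14tg2a mouse embryonic stem cells, a line taken from the early embryo, kept on gelatin in serum medium with the self-renewal cytokine LIF. The series describes them as carrying a c-Raf fusion that 4-hydroxytamoxifen (4OHT) switches on. Cells of both groups had spent 24 hours in 250 nM PD173074, an FGF receptor inhibitor, before 250 nM 4OHT was added for 2 or 4 hours with the inhibitor still there. The inhibitor was also present at 0h, before any 4OHT, and in the 30m, 1h, 8h and 24h groups, while the DMSO group had neither compound. The labels do not say whether the line was 1 clone or whether the replicates were separate cultures. The p-values thus measure a spread between replicate arrays, which may be technical. It is the spread left after a shift common to all arrays of a replicate number is removed. This spread was pooled over all 16 arrays and is not that of the 4 alone. The title and time point of the 4h samples give hours, and their description gives minutes. A control for 4OHT itself was not analysed here.

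Raf phosphorylates and activates MEK, which in turn activates ERK, and active ERK enters the nucleus. There it first turns on immediate early genes such as Egr1 and Fos, which need no new protein. Later waves hold targets of those first factors together with inhibitors that feed back on the cascade, among them the DUSP phosphatases and the Sprouty and Spred proteins. In embryonic stem cells, ERK activity is known for moving cells out of the naive state of pluripotency.

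The sample of each array was taken from the column headings of the deposited value table. The scanner files hold the same arrays, and each matched 1 column at 100% of spots, but 8 of the 16 are attached to a different sample than that column. In both records the replicate 2 arrays of 2h and 4h are the same 2 arrays, so their difference does not rest on this choice. The replicate 1 arrays of 2h and 4h do rest on it, since their scanner files are attached to DMSO and 0h. With arrays grouped by attachment, no gene was called between 2h and 4h by limma (0 genes, 247 at an unadjusted p under 0.05). Under the value table, slide 1 held replicate 1 and slide 2 held replicate 2 of every group. The slide and the replicate number therefore cannot be told apart, and each difference below was also read within a slide.

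The 4 arrays had 58.1% to 64.9% of their spots well above background and no saturated spot. Levels are log2 of the processed signal minus the array's 75th percentile, so 0 is a bright probe of that array and a step of 1 is 2-fold. Over genes, the replicates correlated at 0.9865 at 2h and 0.9872 at 4h. In 7 genes the 2 arrays of 2h lay more than 5 log2 units apart, and in 1 gene those of 4h did. None of these 8 genes was called. Of the defining markers of embryonic stem cells, Pou5f1, Sox2, Nanog and Zfp42 were well above background on all 4 arrays. Of 24 defining markers of other cell types, 12 were above background on all 4 arrays: Gata3 and Krt7 of trophoblast, Gata4 of primitive endoderm, Eomes of the primitive streak, Sox1, Pax6 and Tubb3 of neural cells, Col1a1 and Col1a2 of mesenchyme, and Ptprc, Pecam1 and Gata1 of blood and endothelium. Another 6 were above background on none, Elf5 of trophoblast, T, Mixl1 and Mesp1 of the streak, Prrx1 of mesenchyme and Spi1 of blood, and 6 on some. With RNA from a whole culture, a change in the share of cells and a change in RNA per cell cannot be told apart.

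Among the genes called from 2h to 4h, rises outnumbered falls. The largest rises were those of the homeobox gene Cdx2, Nppb, which encodes a natriuretic peptide, Aldh1a3, an enzyme that makes retinoic acid, Sgms2, a sphingomyelin synthase, and the predicted gene Gm13889. They reached 10.6-fold to 19.3-fold, with Cdx2 and Aldh1a3 above background on 1 of the 2 arrays of 2h. Of 15660 genes tested with limma, 88 were called at a Benjamini-Hochberg adjusted p under 0.05, which is 0.562% of all genes, and 67 of them were higher (0.428%) and 21 lower (0.134%). The median change was 1.54 among the called rises and -0.91 among the called falls (log2), against -0.034 over all genes tested. Over all genes the balance lay the other way: 44.5% of changes were above 0, and both 4h arrays stood above both 2h arrays in 13.1% of genes and below them in 19.3%. Among calls it turned without 2h replicate 1, with 23 higher and 56 lower. A change of at least 2-fold was fitted for 54 of the 67 rises and 9 of the 21 falls.

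All 88 called genes moved in the same direction on both slides. For 66 of the 67 rises, both 4h arrays stood above both 2h arrays, the exception being Exoc3l, and for all 21 falls they stood below. The calls were made on these same arrays, so these counts describe the choice and support nothing. The calls rest on pairing by replicate number: without it, 1 gene was called (0.00639%, Cyth4, limma adjusted p = 0.0291). In that fit, 60 of the 67 rises and 20 of the 21 falls had an unadjusted p under 0.05, against 1102 of all 15660 genes tested. These counts, too, describe the choice. Centring each array on its median instead of its 75th percentile raised the median change of all genes from -0.035 to 0.107 and called 349 genes higher and 22 lower, so that 94.1% of calls were rises in place of 76.1%.

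**Figure D1:**
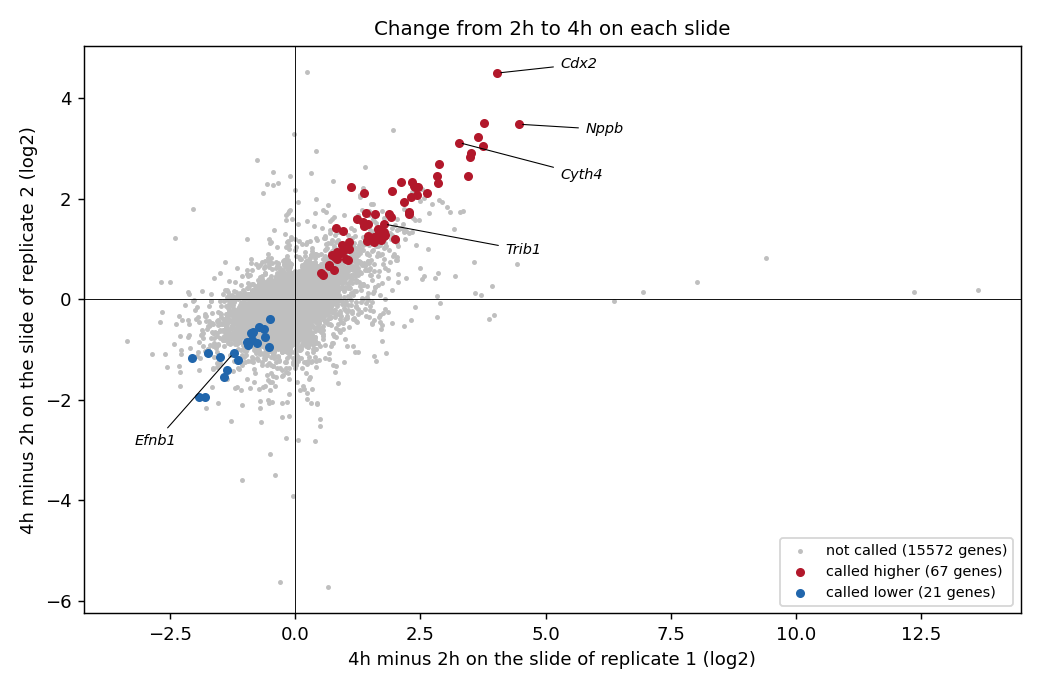
Change from 2h to 4h of each gene tested, as log2 difference on the slide of replicate 1 (horizontal axis) and of replicate 2 (vertical axis). The 67 genes called higher (red) and the 21 called lower (blue) have the same sign on both axes, and single grey points far from the diagonal are genes that differ on 1 slide.

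Cdx2, known from trophectoderm and from the posterior of the embryo, had levels of -3.92 and -5.16 at 2h and of 0.11 and -0.66 at 4h (replicates 1 and 2). Both 4h arrays stood far above both 2h arrays, of which 1 was above background. The rise was 4.27 ± 0.55 on the log2 scale (SE, n = 2 arrays a group, limma adjusted p = 0.0172). Its arrays had stood at -6.28 and -5.92 at 0h, and those of 8h, at 0.37 and -1.19, overlapped those of 4h. Of the other defining markers of trophoblast, Elf5 was not above background, Gata3 was at 0.82 ± 0.39 and Krt7 at 0.07 ± 0.27, and neither was called. The summed level of the 19 trophoblast genes on the array was 36.9 and 53.2 at 2h and 46.8 and 57.0 at 4h, in units of each array's 75th percentile, so the groups overlapped. The part of trophoblast-like cells in the Cdx2 rise was not tested.

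Nppb stood at -1.05 and -1.99 at 2h and at 3.42 and 1.5 at 4h. The groups did not overlap, and the rise was 3.98 ± 0.64 (adjusted p = 0.0363). Aldh1a3 stood at -5.35 and -4.79 at 2h, at -1.70 and -1.56 at 4h, and higher again at 8h, with 1.38 and 0.57. As with Cdx2, 1 of its 2h arrays was above background. Its rise from 2h to 4h was 3.44 ± 0.41 (adjusted p = 0.0124). Gm13889 rose by 3.64 ± 0.45 and Sgms2 by 3.40 ± 0.47 (adjusted p = 0.0136 and 0.0203). Btbd17 rose by 3.21 ± 0.32 and Snai3, a Snail-family zinc finger gene, by 3.15 ± 0.28 (adjusted p = 0.00504 and 0.00392).

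Cyth4, a cytohesin that loads ARF proteins with GTP, was high at 4h and low on either side. Its arrays stood at -3.37 and -3.50 at 0h, at -2.81 and -2.64 at 2h, at 0.45 and 0.48 at 4h, and at -3.06 and -2.72 at 8h. Both 4h arrays thus stood more than 3 log2 units above the arrays of 2h and 8h. The rise from 2h was 3.19 ± 0.25 (9.15-fold, adjusted p = 0.00302), and the fall from 4h to 8h, a comparison that shares the 4h arrays, was -3.36 ± 0.25. Iqsec3, another exchange factor for ARF proteins, was not above background at 2h and rose at least 2.01-fold (adjusted p = 0.0457). It stood at -3.29 and -4.53 at 4h and at -4.39 and -6.72 at 8h.

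**Figure D2:**
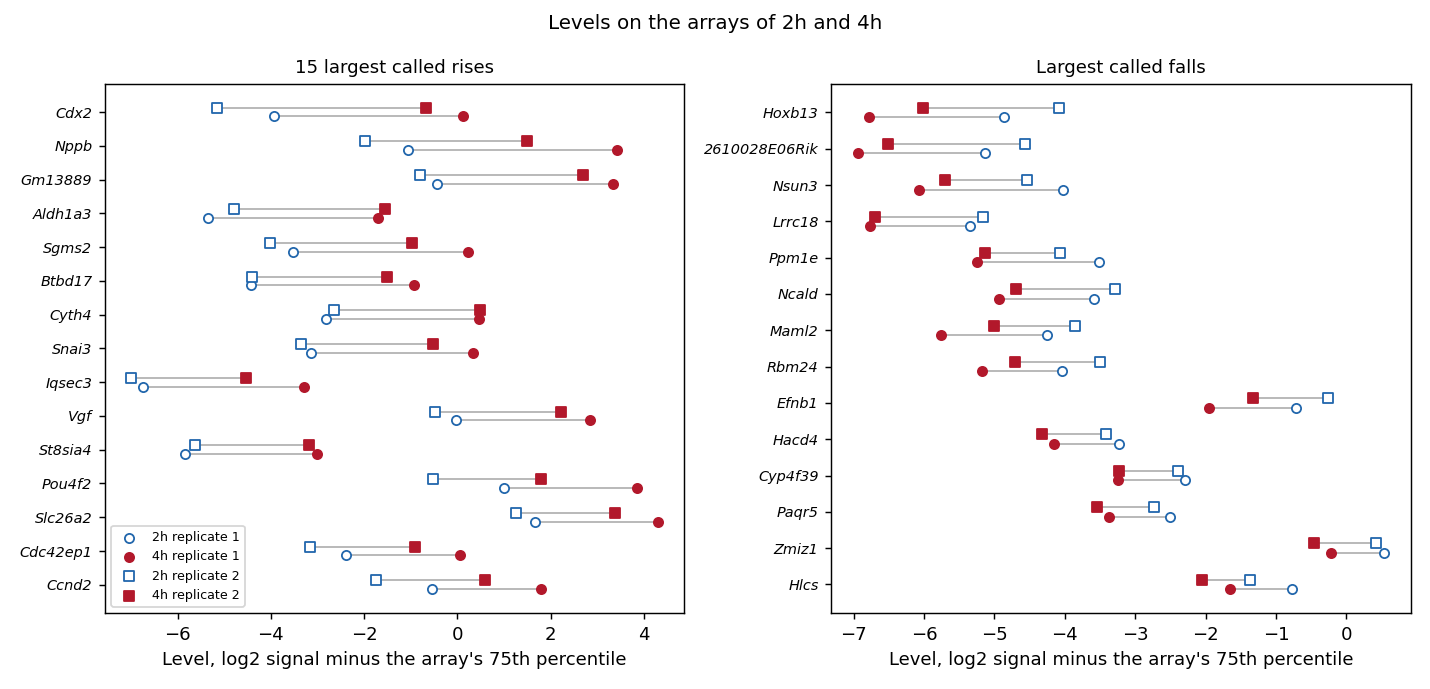
Levels on the 4 arrays (log2 signal minus the array's 75th percentile) for the 15 largest called rises (left) and 14 of the largest called falls (right), with open symbols for 2h, filled symbols for 4h, circles for replicate 1 and squares for replicate 2. A grey line joins the 2 arrays of a slide, and in every gene shown the filled symbols lie on 1 side of the open ones.

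Genes for the inhibitors of the cascade went up in part. Among 12 phosphatases of the DUSP family and their relatives, 2 were called higher and 0 lower, with a list median of 0.24. The counts of this and each later list stand against 0.428% of all genes tested called higher, 0.134% called lower and a median of -0.034. Dusp4, a nuclear phosphatase of ERK, stood at 2.00 and 1.07 at 2h and at 3.66 and 2.47 at 4h, without overlap, and rose by 1.53 ± 0.20 (adjusted p = 0.0176). With arrays as attached to the scanner files its change was -0.87. Dusp2, another nuclear phosphatase, stood at 0.38 and -0.58 at 2h and at 1.49 and 1.65 at 4h and rose by 1.67 ± 0.27 (adjusted p = 0.0377). Dusp6, the cytoplasmic phosphatase of ERK, stood at 5.11 and 4.23 at 2h and at 5.82 and 5.04 at 4h. Its groups overlapped, and its change of 0.77 ± 0.24 was not called (adjusted p = 0.182). Dusp4 at 0h had stood at -1.41 and -2.67, so the larger part of its climb lay before 2h.

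Of 17 Sprouty, Spred and other feedback genes, 2 were called higher and 0 lower, with a median of 0.36. Phlda1, a small protein with a pleckstrin-like fold, stood at 3.24 and 2.75 at 2h and at 5.52 and 4.49 at 4h, with no overlap. Its rise was 2.01 ± 0.32 (adjusted p = 0.035). Spred3, a Sprouty-related inhibitor of Ras signalling, went from below background at 2h to a level at least 1.67-fold higher (adjusted p = 0.0295). Spry4, a Sprouty inhibitor of receptor signalling, stood at 1.86 and 1.45 at 2h and at 2.36 and 1.95 at 4h, and its change of 0.50 ± 0.36 was not called (adjusted p = 0.522). Spred1, chosen after its value was seen, stood just outside the threshold with 1.13 ± 0.21 (adjusted p = 0.0517).

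ETS transcription factors carry much of the ERK response, and the PEA3 members Etv1, Etv4 and Etv5 are well-known targets of FGF signalling. In the list of 18 ETS genes, 2 were called higher and 0 lower, with a median of 0.082. Etv1 stood at 1.71 and 1.07 at 2h and at 2.64 and 2.16 at 4h, and rose by 1.01 ± 0.18 (adjusted p = 0.0481), against -0.70 with arrays as attached. Etv6, which encodes an ETS repressor, rose by 0.93 ± 0.16 (adjusted p = 0.0483). Etv4 stood at 3.51 and 1.94 at 2h and at 4.75 and 3.62 at 4h, and its change of 1.47 ± 0.28 missed the threshold (adjusted p = 0.0613). Etv5 was at 0.29 ± 0.12 and not called (adjusted p = 0.302). The kinases and adaptors of the cascade had 0 of 25 genes called and a median of 0.025, which quantile normalization turned to -0.038.

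No immediate early transcription factor was called from 2h to 4h, with 0 of 22 genes in either direction and a median of 0.19. Egr1 stood at 6.85 and 5.88 at 2h and at 6.80 and 5.53 at 4h, against 1.24 and 0.72 at 0h. Its groups overlapped, with a change of -0.20 ± 0.28 (adjusted p = 0.767). Fos, which pairs with Jun proteins in AP-1, was at -0.22 ± 0.32 (adjusted p = 0.767), and Myc at 0.45 ± 0.27 (adjusted p = 0.454). Jun stood at 5.08 and 4.00 at 2h, at 3.51 and 2.74 at 4h and at 1.80 and 1.78 at 8h. Both 4h arrays of Jun lay below both 2h arrays, and its change of -1.41 ± 0.29 was not called (adjusted p = 0.0737).

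Among 23 other immediate early genes, 1 was called higher and 0 lower, with a median of 0.14. This was Trib1, a pseudokinase that guides protein degradation. It stood at 0.07 and -0.77 at 0h, at 0.48 and -0.33 at 2h and at 2.25 and 1.17 at 4h. The 2h and 4h groups did not overlap, and the rise was 1.64 ± 0.15 (3.11-fold, adjusted p = 0.00392). At 8h it stood at 2.27 and 1.01.

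**Figure D3:**
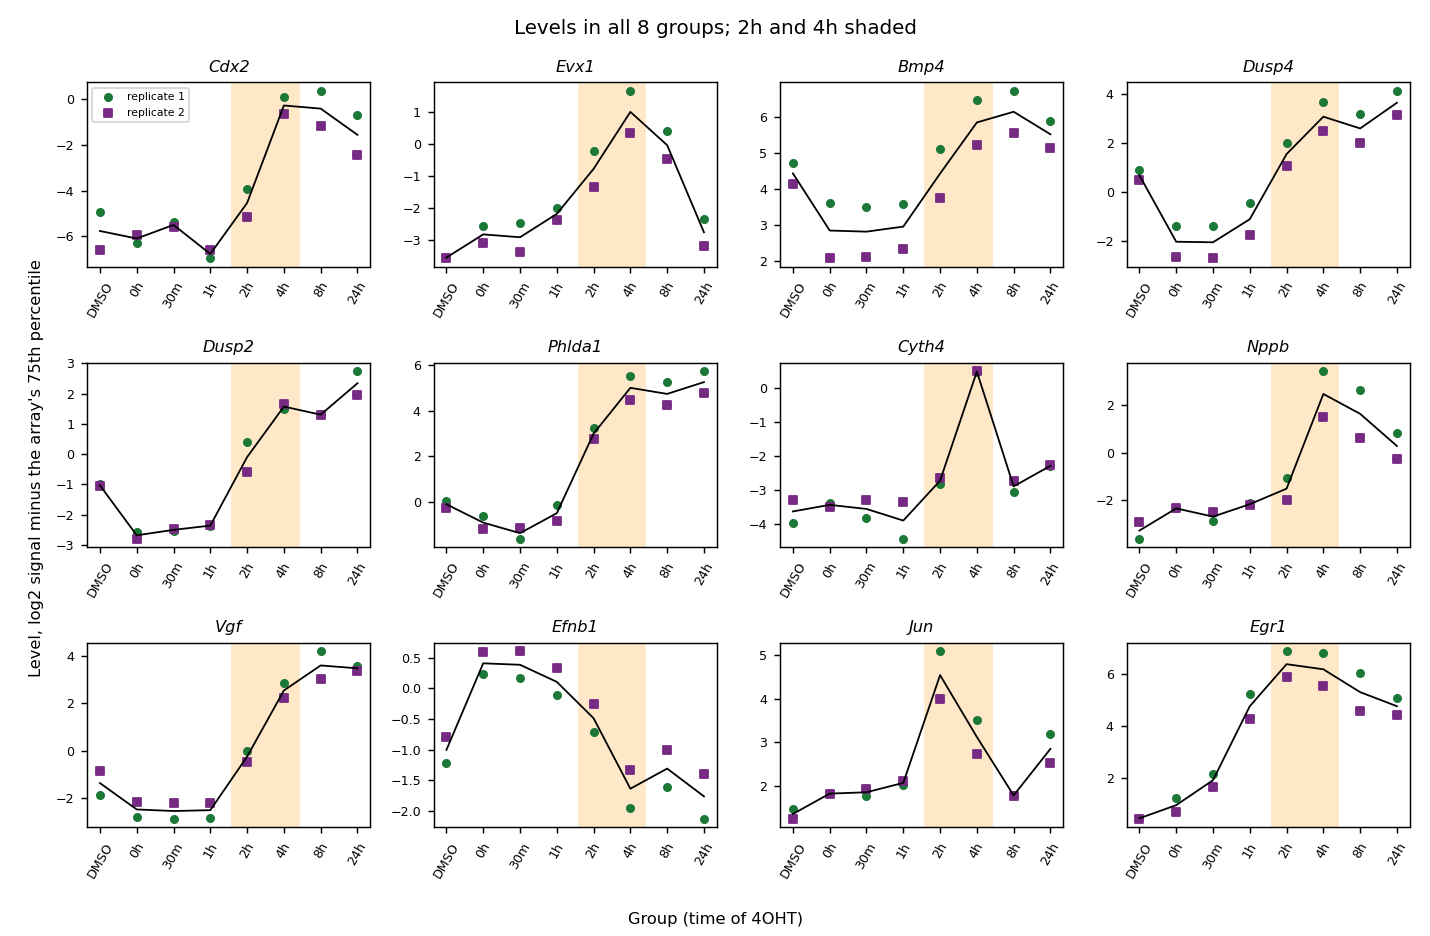
Levels of 12 genes in all 8 groups (vertical axis, log2 signal minus the array's 75th percentile; horizontal axis, groups in order of 4OHT time, unevenly spaced), with a point for each array, a line through the group means and the 2h and 4h groups shaded. Cyth4 is high at 4h and near its 0h level at 8h, Dusp4 and Phlda1 had climbed before 2h, and Jun is highest at 2h.

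Delayed targets of ERK had 3 of 24 genes called higher and 0 lower, with a median of 0.28. Vgf, the precursor of secreted neuropeptides, stood at -0.03 and -0.47 at 2h and at 2.85 and 2.22 at 4h, and rose by 2.78 ± 0.48 (adjusted p = 0.0483). Ccnd2, which encodes the cell cycle regulator cyclin D2, stood at -0.54 and -1.74 at 2h and at 1.79 and 0.60 at 4h, and rose by 2.33 ± 0.29 (adjusted p = 0.0136). It was the 1 gene called among 15 D cyclins, their kinases and inhibitors. Timp1, an inhibitor of matrix metalloproteinases, rose by 0.67 ± 0.11 (adjusted p = 0.0376), and its 2h arrays at 4.52 and 4.42 lay close to its 0h arrays at 4.44 and 4.39. In all 3 genes, the 2h and 4h groups did not overlap.

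Genes of the primitive streak and mesendoderm, the tissue from which mesoderm forms, had 4 of 27 members called higher and 0 lower, with a median of 0.20. Besides Cdx2 these were Evx1, Bmp4 and Mesp1. Evx1, a homeobox gene of the streak, stood at -0.21 and -1.35 at 2h, at 1.67 and 0.34 at 4h and at 0.41 and -0.48 at 8h, and rose by 1.78 ± 0.27 (adjusted p = 0.0276). Bmp4, a secreted growth factor, stood at 5.10 and 3.76 at 2h and at 6.48 and 5.22 at 4h, and rose by 1.42 ± 0.21 (adjusted p = 0.0276), against -0.31 with arrays as attached. Replicate 2 was the lower array of both genes at both times, and the groups did not overlap. Mesp1 was called (adjusted p = 0.0333) although it was not above background on any 2h or 4h array, so its change has no size. T, the Brachyury gene, was not above background on these arrays and not called (adjusted p = 0.13). The summed level of the 31 streak genes was 49.5 and 28.2 at 2h and 108.9 and 52.5 at 4h, but most of it was Bmp4. The other 30 summed to 15.3 and 14.7 at 2h and to 19.6 and 15.3 at 4h, and the 28 left without Cdx2 and Evx1 as well to 14.3 and 14.3, and to 15.3 and 13.4. What part cells of the streak had in these rises was not tested.

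Of 23 genes of naive pluripotency, 1 was called higher (4.35%, against 0.428% of all genes tested) and 0 lower. Gbx2, a homeobox gene downstream of LIF, stood at 0.58 and -0.70 at 2h and at 1.82 and 0.90 at 4h, and rose by 1.42 ± 0.20 (adjusted p = 0.0203), against -0.68 with arrays as attached. Nanog, a core factor of naive cells, stood at 4.46 and 4.41 at 2h and at 3.40 and 3.76 at 4h. Its groups did not overlap, and the change of -0.85 ± 0.75 was not called (adjusted p = 0.604). The error is pooled over all 8 groups, and the 24h arrays of Nanog lay far apart, at -1.76 and 1.57. Klf4 was at -0.52 ± 0.60 and Esrrb, a nuclear receptor, at -0.15 ± 0.37. The 24h arrays stood at 0.23 and 2.25 for Klf4 and at 4.61 and 6.06 for Esrrb. Nanog, Klf4 and Esrrb were each called in 0 of 19 other settings, including the fit without the 24h group. Sox2 was at 0.07 ± 0.12 and its partner Pou5f1 at 0.20 ± 0.24. The median of the naive list was -0.044, and median centring turned it to 0.097. Of 21 formative genes, which mark the next state, 0 were called, with Fgf5 at 1.04 ± 0.33 and Otx2 at 0.27 ± 0.16 (adjusted p = 0.185 and 0.461). Of 24 primitive endoderm genes 0 were called, with Gata6 at 0.16 ± 0.40.

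**Figure D4:**
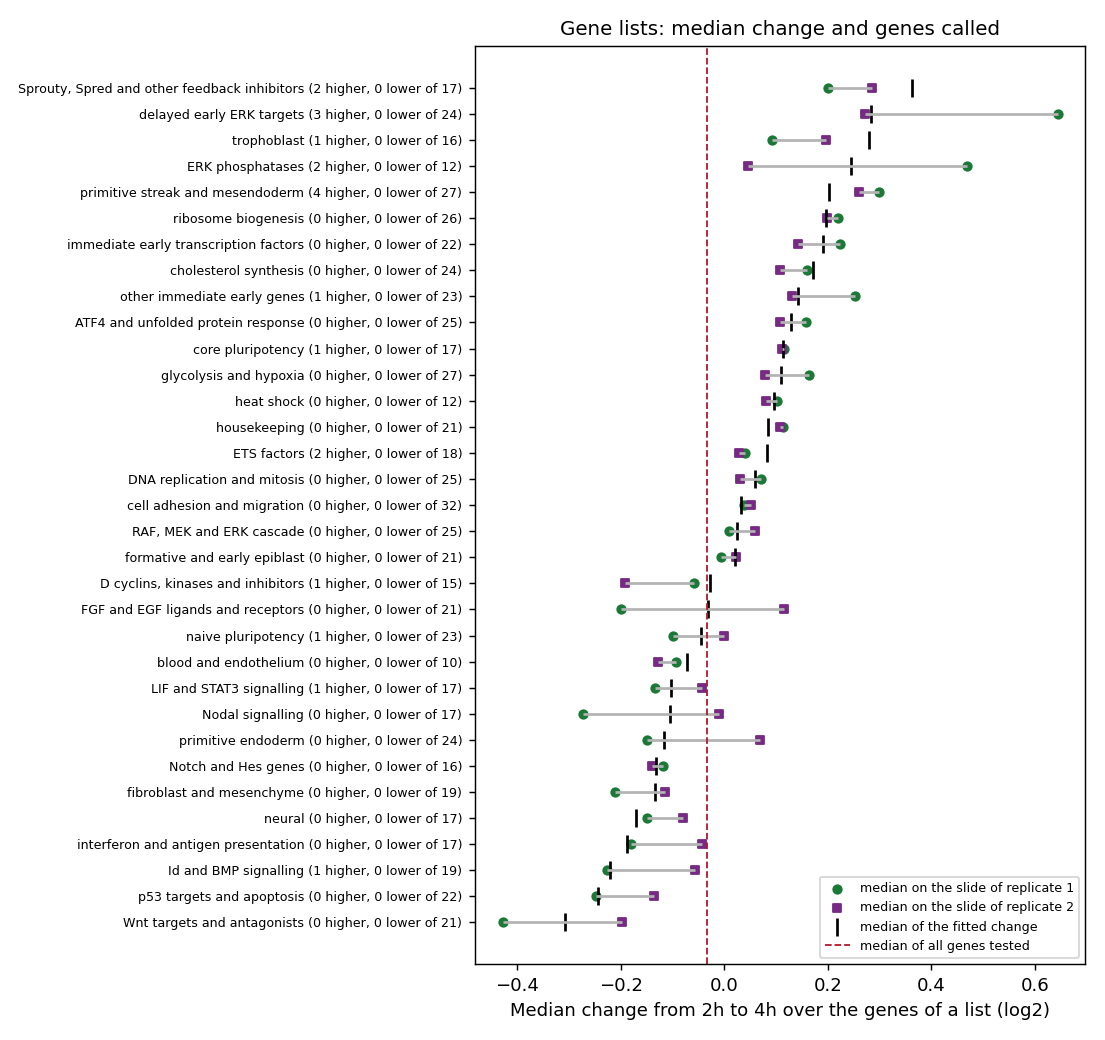
Median log2 change from 2h to 4h of 33 gene lists (horizontal axis), within the slide of replicate 1 (circles), within the slide of replicate 2 (squares) and as fitted (bars), with the count of genes called beside each name and the median of all genes tested, -0.034, as a dashed line. The feedback inhibitors have the highest fitted median, 0.36, and the Wnt list the lowest, -0.31, and 0 genes of any list were called lower.

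In all, 16 of the 88 called genes belonged to at least 1 of the 33 lists, and 0 of the 21 falls did. Cdx2, Bmp4, Ccnd2 and Gbx2 are counted in more than 1 list. The lists hold 614 of the genes tested, or 3.92%, and 18.2% of the called genes, but they were chosen with earlier results of these data known. The sign of 16 list medians turned under at least 1 of 4 other scalings, while 6 lists changed sides relative to all genes tested. Ribosome biogenesis had 0 of 26 genes called, but all 26 changes were above 0, against 44.5% of all genes tested, with a median of 0.20, from Rrp1b at 0.07 ± 0.14 to Wdr43 at 0.42 ± 0.15. The housekeeping list leaned the same way, with 15 of 21 changes above 0 and a median of 0.084. Of 22 genes that p53 induces or that control apoptosis, 0 were called, and the median was -0.24. Btg2, an antiproliferative gene of both the p53 and the immediate early lists, was at -1.13 ± 0.24 (adjusted p = 0.0793), and Bcl2l11, the killer protein Bim, at 1.24 ± 0.26 (adjusted p = 0.0801). These list members were chosen after their values were seen.

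Several called rises belonged to no list. Slc26a2, a sulfate transporter, rose by 2.38 ± 0.40 and Pou4f2, a POU-domain factor of sensory neurons, by 2.57 ± 0.35 (adjusted p = 0.0428 and 0.0203). Cdc42ep1, an effector of the GTPase Cdc42, stood at -2.34 and -2.70 at 0h, at -2.40 and -3.15 at 2h and at 0.06 and -0.91 at 4h. The 0h and 2h arrays overlapped, and the 4h arrays stood above them, with a rise of 2.35 ± 0.23 (adjusted p = 0.00504). St8sia4, a polysialyltransferase, was below background at 2h and rose at least 3.56-fold (adjusted p = 0.0428). Further genes were chosen after their values were seen. Nefm, a neurofilament subunit, rose by 2.22 ± 0.16 and had the lowest adjusted p of all, 0.00276. Nrp2, a semaphorin co-receptor, rose by 2.31 ± 0.27, Il6ra, a receptor for interleukin 6, by 2.18 ± 0.34, and Nfkb1, a subunit of NF-kappaB, by 1.45 ± 0.15.

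The called falls were fewer, and their median size was smaller. Efnb1, an ephrin ligand at cell contacts, had the lowest adjusted p among them. It stood at 0.23 and 0.59 at 0h, at -0.72 and -0.26 at 2h and at -1.95 and -1.33 at 4h. No 2 of these groups overlapped, and from 2h to 4h it fell by 1.15 ± 0.11 (2.22-fold, adjusted p = 0.00392), against a change of 0.15 with arrays as attached. Rbm24, an RNA-binding protein, fell by 1.17 ± 0.16 and Ncald, a neuronal calcium sensor, by 1.38 ± 0.23 (adjusted p = 0.0203 and 0.0428), each above background on 1 of the 2 arrays of 4h. Zmiz1, a PIAS-like coactivator, fell by 0.82 ± 0.11 and Hlcs, the biotin ligase, by 0.77 ± 0.10. Hacd4 fell by 0.92 ± 0.13, Cyp4f39, a cytochrome P450, by 0.90 ± 0.16 and Paqr5 by 0.83 ± 0.14.

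Several of the largest fitted falls ended below background and have only a bound. Maml2, a coactivator of Notch, was at least 2.46-fold lower at 4h, the phosphatase gene Ppm1e at least 2.5-fold and Nsun3, a methyltransferase of mitochondrial transfer RNA, at least 2.11-fold. The homeobox gene Hoxb13 was at least 1.84-fold lower and 2610028E06Rik at least 1.42-fold, both above background on 1 of the 2 arrays of 2h. Lrrc18 was called without being above background at either time, so its change has no size, and normexp correction turned its sign. Maml2 and Nsun3 were highest at 2h among the 0h, 2h and 4h groups: Nsun3 stood at -6.11 and -6.61 at 0h, at -4.02 and -4.53 at 2h and at -6.07 and -5.70 at 4h.

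The called genes were next read in comparisons that, under the value table, use no 2h or 4h array. In the scanner files, the replicate 2 arrays of DMSO and 0h are attached to replicate 1 of 2h and 4h. The comparisons all share the 2 arrays of 0h. They also belong to the same fit, which gives each gene 1 estimate of its spread. A gene with a small spread is therefore more easily called in all of them. From 0h to 8h, 64 of the 67 rises (95.5%) were also called higher, against 8.44% of all genes, and from 0h to 24h 64 were, against 18.3%. The median changes of the 67 were 2.62 over both spans. From 0h to 1h, 0 of the 67 were called in either direction (0.0192% of all genes were called), and their median change was 0.037. Of the 21 falls, 17 (81.0%) were called lower from 0h to 8h, against 12.6% of all genes, and 12 (57.1%) from 0h to 24h, against 21.1%. Maml2 was called higher from 0h to 8h, with 1.02 on the log2 scale (adjusted p = 0.00374). From 0h to 24h, 1 of the rises was called lower, Timp1 at -0.95 (adjusted p = 0.000186). Over that span 2 of the falls were called higher, Hlcs at 0.52 and Nsun3 at 0.90 (adjusted p = 0.00222 and 0.0289). Of the rises, those not called from 0h to 8h were Cyth4, Fam43b and Nr1d1.

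The comparison of 0h with DMSO shows the same genes under the FGF receptor inhibitor alone. Of the 67 rises, 33 were called lower with the inhibitor, against 6.69% of all genes, and 3 were called higher, against 8.25%. Their median change was -0.72. Wt1, a zinc finger gene, was lower by 3.34 on the log2 scale (adjusted p = 6.98e-05), Gbx2 by 2.81 and Dusp4 by 2.71. Under the value table, each of them then rose between 2h and 4h of 4OHT. The 3 called higher with the inhibitor were Timp1, Il6ra and Gprc5a. Of the 21 falls, 6 were called higher with the inhibitor and 2 lower, with Efnb1 at 1.41 among the former (adjusted p = 0.000153).

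Promoter sequence was read for called genes from RefSeq (GRCm38.p6), from 250 bases before to 50 bases after each start. A promoter was found for 40 of the 67 rises and 17 of the 21 falls. Both strands were searched for the words of AP-1 (TGAGTCA), ETS (CCGGAAGT), CRE (TGACGTCA), EGR (GCGGGGGCG) and the E-box (CACGTG), and for the serum response element. The 250 bases before the start are shown for 4 genes: Cdx2, the largest rise, Dusp2, the feedback phosphatase with EGR and E-box words, Cdc42ep1, a rise at 4h from a flat start, and Mesp1, which holds a serum response element. Capitals mark these matches, and each sequence runs 5′ to 3′ on the strand of its gene.
Cdx2 (chr5:147307250-147307499, reverse strand): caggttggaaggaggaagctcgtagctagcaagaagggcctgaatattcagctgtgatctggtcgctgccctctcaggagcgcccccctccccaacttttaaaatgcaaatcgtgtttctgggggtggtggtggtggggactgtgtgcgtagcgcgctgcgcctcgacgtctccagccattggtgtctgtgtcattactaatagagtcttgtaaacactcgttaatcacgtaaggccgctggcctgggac
Dusp2 (chr2:127335909-127336158, forward strand): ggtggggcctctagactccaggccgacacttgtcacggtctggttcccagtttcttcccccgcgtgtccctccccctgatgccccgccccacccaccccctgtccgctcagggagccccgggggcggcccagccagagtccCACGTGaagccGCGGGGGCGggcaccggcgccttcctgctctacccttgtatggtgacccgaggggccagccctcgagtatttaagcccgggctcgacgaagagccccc
Cdc42ep1 (chr15:78842397-78842646, forward strand): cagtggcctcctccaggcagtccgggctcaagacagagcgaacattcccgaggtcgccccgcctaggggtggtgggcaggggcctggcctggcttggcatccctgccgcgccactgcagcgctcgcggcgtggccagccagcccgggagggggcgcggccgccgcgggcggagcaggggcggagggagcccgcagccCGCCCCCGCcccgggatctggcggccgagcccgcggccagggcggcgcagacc
Mesp1 (chr7:79793591-79793840, reverse strand): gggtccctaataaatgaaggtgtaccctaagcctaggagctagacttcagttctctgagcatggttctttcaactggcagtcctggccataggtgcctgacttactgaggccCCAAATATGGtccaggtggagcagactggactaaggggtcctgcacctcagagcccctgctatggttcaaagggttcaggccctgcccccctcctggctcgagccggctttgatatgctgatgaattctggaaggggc

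In Dusp2 the EGR word began 98 bases and the E-box 109 bases before the start, and in Cdc42ep1 an EGR word on the other strand began 53 bases before it. In Mesp1 the serum response element began 138 bases before the start. The stretch of Cdx2 held none of the 6 motifs. Of the 40 matched rises, 3 (7.50%) held the EGR word, against 5.76% of all genes tested, and 6 (15%) the E-box, against 10.9%. The AP-1 word was in 2 (5.0%), against 4.68%. The serum response element was in 1 (2.50%), Mesp1, against 1.66%. Of the 17 matched falls, 1 (5.88%) held the EGR word, 1 (5.88%) the serum response element, and 0 the E-box or the AP-1 word. The ETS word was in 0 of the 40 rises and in 2 (11.8%) of the 17 falls, against 7.59% of all genes tested. A match is a run of letters and not a bound site.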

How the data were processed

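RNA was hybridised to Agilent mouse arrays of 1 colour. Per the file headers, the authors' scanner files were made with Feature Extraction 11.0.1.1 and hold processed signal intensity and quality flags, and the deposited value table holds the same intensity by sample. No value table column was without a sample.

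Signals were matched to value table columns within 0.6%. Control spots and outlier spots (147 to 240 an array) were left out, log2 was taken, each array's 75th percentile was subtracted and spots of a probe were averaged. Of 55681 probes, 27656 matched 1 RefSeq gene (GRCm38.p6, names only), 28025 none and 0 several. A gene was its probe with the highest mean signal. Of 20972 genes, 15660 were tested: in at least 1 group, the probe had to be flagged well above background on each array.

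limma 3.58.1 (R 4.3.3) was fitted to 16 arrays in 8 groups, with the replicate number as a block, eBayes, two-sided tests and Benjamini-Hochberg adjustment. It had 7 residual degrees of freedom, and ± is its standard error. The block removes the shift common to all arrays of a replicate number, so ± is not the full scatter between replicates. The median standard error over genes was 0.153, against 0.2285 without the block. Deviations from group means correlated above 0.1 for same-numbered arrays in 28 of 28 pairs of groups (0.647 for 2h and 4h). Same-numbered arrays thus share a shift. They also share a slide, so the check cannot show that their samples were matched. Where every array of a group was below background, the fold is a bound, set by the dimmest probe that each such array measured well above background. With 2 arrays a group, their number limits the precision.

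Named were the 15 largest called rises and falls, called list members (up to 4 a list and direction), genes called without the block, and 18 genes always given (such as Egr1, Jun, Nanog). Results for 2 genes under this rule are not reported here. The members and the 33 lists were chosen with earlier results of these data known. The fit was tested on simulated data. Alternatives covered block, scaling, background, probe filter, array record and arrays left out.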

Additional observations from a re-analysis of the deposited data

Results flagged for a closer look

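Of 28025 probes that matched no gene, 14510 were above background in at least 1 group and were tested in a fit over probes, outside the gene comparison. limma called 8 of them higher and 4 lower from 2h to 4h (0.0827%, against 0.269% of probes with a gene), and the 8 rises are given because such signal lies outside the gene comparison. Positions are those the array's annotation gives (mm9, per the file headers). Both probes of a reverse-strand region at chr12:52944867-52971992 were not above background at 2h and were above it on both 4h arrays, which puts their rises at least at 3.58-fold and 5.9-fold. Their arrays stood at -3.00 and -3.16, and at -2.17 and -2.55, at 4h. On the forward strand, 2 probes of chr15:102100964-102104552 rose by 1.52 and 1.41, and 1 probe of the overlapping chr15:102100397-102105872 rose by 1.5. A forward-strand region at chr6:52046805-52072744 rose by 1.75 and a reverse-strand one at chrX:6950444-6952293 by 0.94. The last, a probe for an Ensembl transcript, rose by 1.18, with arrays at -3.02 and -2.91 at 2h, at -1.96 and -1.62 at 4h and at -3.25 and -2.98 at 8h. What these regions transcribe was not tested.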

How the results depend on the processing

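The number of called genes moved with most settings. The 88 were chosen on these same arrays, with the same sign on both slides, so a kept sign describes the choice and supports nothing. In every setting but normexp correction and the arrays as attached, those of the 88 that were tested kept their sign. These were 73 with a filter for signal above background on all 4 arrays, 87 without DMSO, and all 88 in the others. Against 88 called (67 higher, 21 lower, and 64 and 17 of them called likewise from 0h to 8h), the fit with no replicate block called 1 higher and 0 lower (0 and 0 likewise), 1102 genes having an unadjusted p under 0.05. A fit of the 4 arrays alone called 0 genes, 0 higher and 0 lower, with 3094 at an unadjusted p under 0.05. With arrays as attached to the scanner files, 0 genes were called, 0 in each direction (0 and 0 likewise), and 60 of the 79 tested kept their sign and 19 did not. Among called genes reported under the naming rule above, reversed were Bmp4 (-0.31), Dusp4 (-0.87), Efnb1 (0.15), Etv1 (-0.70) and Gbx2 (-0.68). Wt1 lay outside that rule, and its fitted change under attachment was not read. Its arrays attached to 2h and 4h as replicate 1 stood at 0.74 and -2.68. Normexp correction reversed Lrrc18 (0.08) and called 178 genes, 151 higher (135 likewise). Median scaling called 371, 349 higher (271 likewise), and quantile normalization 166, 136 higher (118 likewise). With no filter on dim probes, 51 were called, 41 higher and 10 lower (38 and 7 likewise). The mean of a gene's probes gave 9 lower (8 likewise). Among settings chosen after seeing the data, leaving out the 24h group gave 37 lower (29 likewise), leaving out DMSO gave 10 falls likewise, and a trended robust prior gave 168 genes, 131 higher (123 likewise) and 37 lower.

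Each array mattered. Leaving out 1 of the 4 gave 44 to 104 genes, 23 to 72 higher and 2 to 56 lower (11 to 42 and 1 to 16 likewise). Dropping 2h replicate 1 left 23 rises and 56 falls, and dropping 2h replicate 2 left 30 rises and 27 falls. Dropping 4h replicate 1 left 42 rises and 2 falls, and dropping 4h replicate 2 left 72 rises and 32 falls. The lone array of a group was then assumed to vary like the other groups, and the cause was not tested. A random block called 76 genes, 63 of them among the 88, and the value table's signals gave the same 88. Of the 15 other probes that detected 13 of the called genes, 14 had the same sign, 11 of them with an unadjusted limma p under 0.05. The exception by sign was a probe of Arap3, at -0.01 against 1.46. Probes of Esyt3 (-0.01 against -0.45), Mcc (0.19 against 0.82) and Trim34a (-0.27 against -0.73) had the same sign but did not pass that p. Of 41 named called genes, 24 were called in over 50% of the settings that tested them, while 7 of 27 rises (Etv1, Etv6, Iqsec3, Mesp1, Spred3, St8sia4 and Vgf) and 10 of 14 falls were not. Signals near background limit the falls most, since 6 of 21 have no measured 4h level.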

Other observations

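Of 92 genes tested in lists of the Wnt, Nodal, Notch, BMP and FGF/EGF routes, 1 was called (1.09%, against 0.562% of all genes tested). Of 21 targets and antagonists of Wnt, 0 were called, with the lowest list median, -0.31, which normexp correction turned to 0.03. Of 17 genes of Nodal signalling 0 were called, with a median of -0.10, and of 16 Notch and Hes genes 0 were called, with a median of -0.13. The list of BMP signalling and Id genes had a median of -0.22 and 1 call, the ligand Bmp4. Id1 and Id2, inhibitors of helix-loop-helix factors, stood at 1.09 ± 0.31 and -0.96 ± 0.25 and were not called (adjusted p = 0.153 and 0.137). Of 21 ligands and receptors of the FGF and EGF families 0 were called. Hbegf and Areg, ligands of the EGF receptor, had adjusted p = 0.25 and 0.154, Hbegf stood at 1.05 ± 0.39, and Areg was not above background at either time. Genes of cholesterol synthesis (0 of 24 called, median 0.17) and of DNA replication and mitosis (0 of 25 called, median 0.060) are given by their counts alone. These genes were chosen after their values were seen.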
